A study of Mus musculus with 17 samples.

Results

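Chemokines and chemokine receptors were described across livers of mice that had chow or a high-fat diet (HFD) with or without 1 ethanol binge. A gene was a member when its symbol on the array was spelled as a Ccl, Cxcl, Cx3cl or Xcl chemokine or as a Ccr, Cxcr, Cx3cr or Xcr receptor and its liver signal was well above background on 4 or more of the 17 arrays. Of 55 such symbols 45 were members, out of 19358 genes tested, and 35 of the 45 stood above background on all arrays. The spelling also took in Ccrn4l, which encodes the deadenylase nocturnin and not a chemokine receptor, so that 44 members belong to the family. Ccl4, Ccl12, Ccl20, Ccl22, Cxcl5, Cxcl13, Cxcl17, Ccr8, Cxcr5 and Cxcr6 had the spelling but too little signal and were not tested.

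All mice were males of the C57BL/6N strain per the sample labels and of the C57BL/6J strain per the methods. Diets were given for 3 months, and livers were taken 9 h after gavage. The chow group (n = 4) had the chow diet and a maltose gavage, the 1B group (n = 4) had chow and ethanol at 5 g/kg, the HFD group (n = 4) had HFD and maltose, and the HFD+1B group (n = 5) had HFD and ethanol at 5 g/kg. The labels gave no genetic change in any group. Each array compared the liver RNA of 1 mouse, dyed with Cy5, with a reference RNA dyed with Cy3, and the values below are log2 ratios of liver to reference. Arrays of chow mice had median Cy5 signals of 99 to 138 (intensity units), those of 1B mice 69 to 134, those of HFD mice 63 to 98 and those of HFD+1B mice 90 to 158, so 3 of 4 HFD arrays were at 70 or below, beside 1 of the other arrays (1B mouse 4), and the part of this in the HFD results was not tested. In whole liver, fewer cells of a type and less RNA per cell cannot be told apart. The 17 arrays were spread over 5 slides, each with more than 1 group, and differences within slides are given for the members that moved most.

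Chemokines are small secreted proteins that guide leukocytes along a gradient, and their receptors are G protein-coupled receptors of the leukocyte surface. CXC ligands such as Cxcl1 act on neutrophils through Cxcr2, those induced by interferon gamma act on T cells through Cxcr3, and CC ligands act mostly on monocytes, macrophages and lymphocytes. In the liver they are made by hepatocytes, Kupffer cells, stellate cells and the sinusoidal endothelium, and Cxcl12 holds cells that carry Cxcr4 in place.

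Of the 45 members, 19 were called at a Benjamini-Hochberg adjusted p of 0.05 or less (limma, adjusted over all probes) in at least 1 of 6 comparisons, beside 34.1% of all genes, and 26 in none, 18 of which were above background on all arrays. The 3 comparisons with chow share the chow mice. Ethanol on chow (1B minus chow) raised 1 of 45 members, Ccl6, against 2.09% of all genes, and lowered 1, Cxcl12, against 2.04%. HFD minus chow gave 3 higher members, Ccl6, Cxcl9 and Cxcl10, against 4.5% of all genes, and 5 lower ones, Ccl9, Ccl24, Ccl25, Ccr1 and Ccrn4l, against 6.48%. HFD+1B minus chow gave 8 higher members, Cxcl1, Ccl6, Cxcl14, Ccl5, Cx3cl1, Ccl19, Ccl2 and Ccl17, which is 17.8% of the members against 8.89% of all genes. The same comparison gave 2 lower members, Cxcl12 and Ccl27a, against 7.41%. The median log2 difference of the members was 0.03 there, beside 0.0006 over all genes.

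Ethanol on HFD (HFD+1B minus HFD) raised 8 members, Cxcl1, Ccl6, Ccl25, Ccl19, Ccr6, Ccl17, Ccr1 and Ccl5, against 11% of all genes, and lowered Cxcl12 and Cxcl10, against 8.39%. HFD under ethanol (HFD+1B minus 1B) raised 6 members, Cxcl1, Ccl6, Cxcl14, Cx3cl1, Ccl19 and Ccl5, against 6.28%, and lowered Cxcl12 and Cxcl11, against 5.16%. Whether ethanol acted differently on the 2 diets was asked by the interaction, the ethanol difference on HFD minus that on chow. It was higher for 1 member, Ccl19, against 2.67% of all genes, and lower for 1, Cxcl11, against 1.72%. The share of higher against lower calls moved with the scaling. Of the members called in HFD+1B minus HFD it was 7 to 4 at a smaller background offset of 16 and in the authors' ratios, and 4 to 2 in the Cy5 channel alone, which left 0 to 3 in HFD minus chow and 2 to 0 in HFD+1B minus 1B. With plain median centring, which moved the median of all genes in HFD+1B minus HFD to 0.14, the split was 6 to 1 in HFD+1B minus 1B and 3 to 0 in the interaction.

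**Figure D1:**
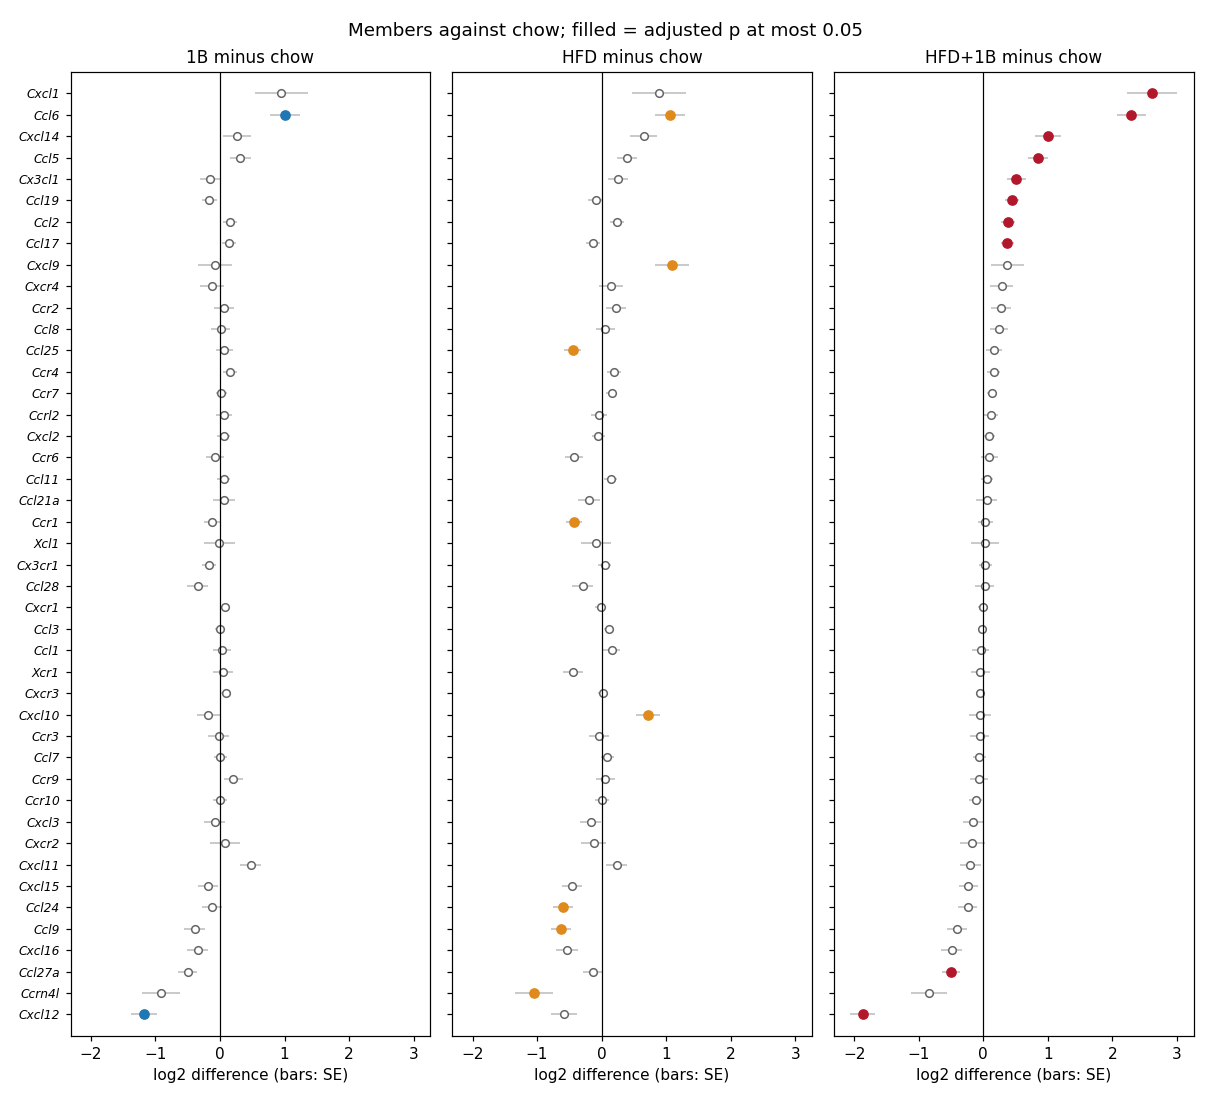
Log2 difference of 44 of the 45 members (vertical axis, ordered by HFD+1B minus chow) in 1B, HFD and HFD+1B against chow, with standard errors as bars and filled points where the adjusted p was 0.05 or less. Cxcl1 and Ccl6 stand at the top at 2.61 and 2.30 in HFD+1B and Cxcl12 at the bottom at -1.87, while most members lie near 0 in every column.

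Among the CXC ligands and receptors of neutrophils, Cxcl1 moved and the other members were not called. Cxcl1, a ligand of Cxcr2, had log2 ratios of -1.01, -1.58, -1.79 and -1.64 in chow mice, -0.29, 0.12, -1.04 and -1.02 in 1B mice, and -0.16, -0.86, 0.08 and -1.53 in HFD mice. In the HFD+1B mice the ratios were 1.90, 0.17, 1.78, 1.51 and 0.18. All 5 HFD+1B mice were above every mouse of the other groups, 3 of them by far, while 1B and HFD mice lay between and each overlapped chow. HFD+1B exceeded chow by 2.61 ± 0.39 on the log2 scale (SE), which is 6.12-fold (adjusted p = 1.71e-04), HFD by 1.72 ± 0.39 (adjusted p = 0.00575) and 1B by 1.67 ± 0.39 (adjusted p = 0.0108). On the slides that held both groups HFD+1B minus chow was 1.76 to 3.42, minus HFD 1.04 to 3.04 and minus 1B 0.065 to 2.53, so that on 1 slide HFD+1B lay close to 1B. Ethanol on chow and HFD alone gave 0.95 (adjusted p = 0.296) and 0.89 (adjusted p = 0.183), and the interaction was 0.78 (adjusted p = 0.49), so a larger ethanol difference on HFD was not detectable for Cxcl1.

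Cxcl3, Cxcl15, Cxcl1 and Cxcl2 follow each other on chromosome 5 with no protein-coding gene of the annotation between them. Cxcl2, the other main Cxcr2 ligand, was well above background on 5 arrays, on 0 of the 4 chow arrays, 1 of 4 1B, 1 of 4 HFD and 3 of 5 HFD+1B arrays. It was called in no comparison (adjusted p = 0.575 in HFD+1B minus chow), and no fold is given for it, since the Cy5 channel and the ratio differed in size and, for HFD, in direction. Cxcl3 gave -0.16 in HFD+1B minus chow and Cxcl15, a ligand named for lung epithelium, gave -0.23, with adjusted p of 0.572 and 0.376. Of these neighbours Cxcl1 alone was called in any comparison. Of the receptors, Cxcr1 gave 0.0014 and was above background on 9 arrays. The brightest Cxcr2 probe gave -0.17 (adjusted p = 0.657), with the values of chow mouse 1, 1B mice 1 and 3 and HFD+1B mouse 4 dropped as outlier spots. The dimmer Cxcr2 probe was lower under HFD than under chow (by -0.64, adjusted p = 0.0176) and higher in HFD+1B mice than in HFD mice by 0.52 (adjusted p = 0.0239). Of 11 tested neutrophil markers S100a8, S100a9 and Il1r2 were higher in HFD+1B than in chow and Csf3r lower, by 1.46, 1.04, 0.48 and -1.04. Of all genes 8.89% were higher and 7.41% lower there. S100a8 was also called higher in 1B and in HFD than in chow. The median difference of the list in HFD+1B minus chow was -0.04. The marker list as a mean difference from chow ran from -0.15 to 0.20 in chow and from 0.03 to 0.35 in HFD+1B mice. The part of these cells in the Cxcl1 result was not tested.

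The promoters of this pair of neighbours are shown because only Cxcl1 was called although both hold the NF-kB-like word GGNNTTTCC on either strand, in capitals. Each is the reference sequence from 250 bases before to 50 bases after the start, 5′ to 3′ on the strand of the gene (RefSeq, GRCm38.p6), at chr5:90890995-90891294, plus strand, for Cxcl1 and chr5:90903649-90903948, plus strand, for Cxcl2.
Cxcl1: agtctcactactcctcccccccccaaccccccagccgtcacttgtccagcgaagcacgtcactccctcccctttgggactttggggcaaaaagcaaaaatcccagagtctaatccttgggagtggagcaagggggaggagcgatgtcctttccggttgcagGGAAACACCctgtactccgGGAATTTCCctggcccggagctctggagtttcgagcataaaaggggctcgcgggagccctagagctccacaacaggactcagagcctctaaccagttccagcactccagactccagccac
Cxcl2: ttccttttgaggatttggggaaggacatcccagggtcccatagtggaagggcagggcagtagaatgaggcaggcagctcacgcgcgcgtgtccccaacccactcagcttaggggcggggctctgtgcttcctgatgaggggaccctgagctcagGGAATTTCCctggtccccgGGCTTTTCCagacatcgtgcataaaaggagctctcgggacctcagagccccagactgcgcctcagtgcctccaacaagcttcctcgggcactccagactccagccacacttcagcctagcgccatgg
Each holds 2 such words, beginning 89 bases before the start in Cxcl1 and 96 in Cxcl2. The word occurred in the promoters of 6.62% of 27025 genes and of 8 of the 35 members that had an entry, Cxcl1, Cxcl2, Cxcl3, Cxcl9, Cxcl10, Ccl9, Ccr3 and Ccrl2. Of these 8 genes only Cxcl1 was called in HFD+1B minus chow, beside 8.89% of all genes higher and 7.41% lower. In HFD minus chow Cxcl9 and Cxcl10 were called higher and Ccl9 lower, beside 4.5% and 6.48% of all genes. Ccl2 and Ccl5, called higher in HFD+1B minus chow, had no promoter entry. A matching word is not a measured binding site.

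**Figure D2:**
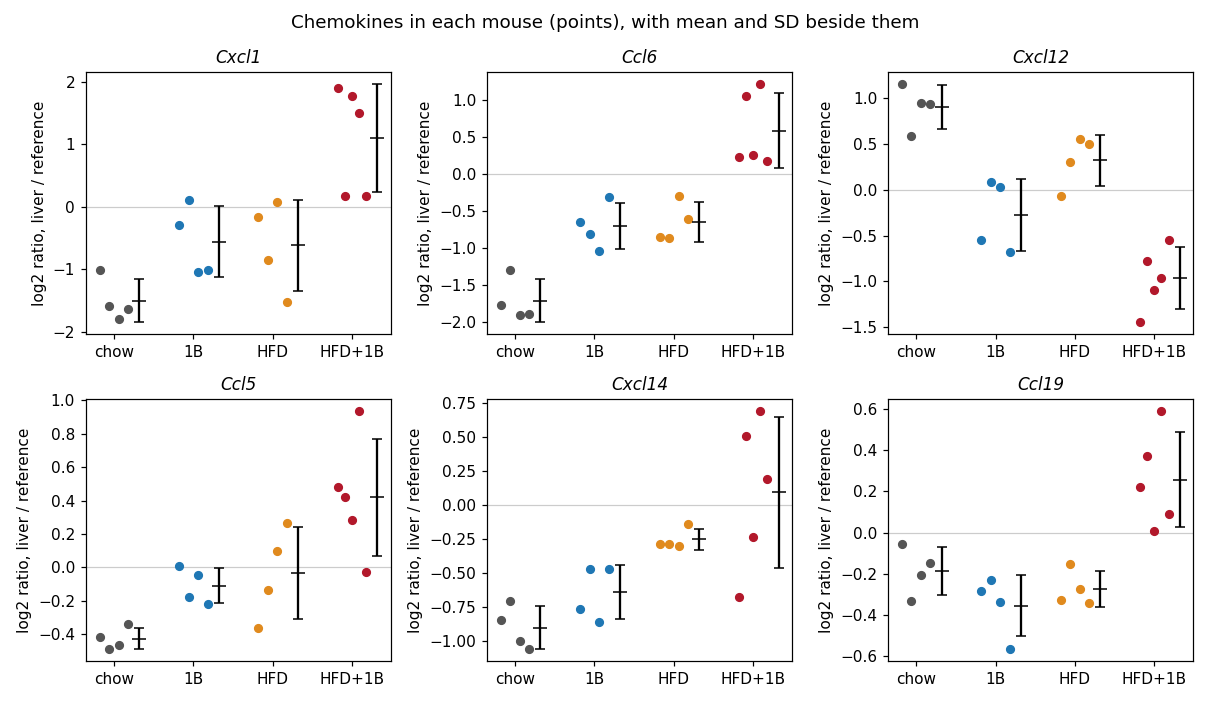
Log2 ratio of liver to reference (vertical axis) in each mouse of the 4 groups (points), with the mean and SD beside each group, for Cxcl1, Ccl6, Cxcl12, Ccl5, Cxcl14 and Ccl19. The HFD+1B points of Cxcl1 and Ccl6 lie above all others, 4 of the 5 of Cxcl12 lie below all others, and those of Cxcl14 spread from -0.67 to 0.69.

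Ccl6, a CC ligand made mainly by myeloid cells and a ligand of Ccr1, was the only member called higher in all 3 comparisons with chow. Its log2 ratios were -1.77, -1.3, -1.92 and -1.89 in chow, -0.65, -0.82, -1.05 and -0.31 in 1B mice, -0.85, -0.87, -0.30 and -0.61 in HFD mice, and 0.22, 1.04, 0.25, 1.21 and 0.17 in HFD+1B mice. The chow mice lay lowest, 1B and HFD mice shared a middle range, and all HFD+1B mice lay above them with no overlap. HFD+1B minus chow was 2.30 ± 0.22 (SE), 4.92-fold, with an adjusted p of 2.71e-06, and 1.46 to 2.96 within slides. 1B minus chow was 1.01 ± 0.23 (adjusted p = 0.0187) and HFD minus chow 1.06 ± 0.23 (adjusted p = 0.00795). The interaction was 0.22 (adjusted p = 0.757). The 1B call was lost when chow mouse 3 or 4 or 1B mouse 1 or 4 was left out, with differences of 0.88 to 0.99 and adjusted p of 0.0582 to 0.0696, and in the Cy5 channel alone (0.87, adjusted p = 0.311). The HFD call was also lost in the Cy5 channel alone (adjusted p = 0.242).

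Ccl5, Ccl9, Ccl6 and Ccl3 are neighbours on chromosome 11, and they did not move as a block. Ccl9, which like Ccl6 acts on Ccr1, had ratios of 0.24, 0.36, 0.20 and 0.26 in chow and -0.71, -0.22, -0.42 and -0.13 in HFD mice, without overlap, where Ccl6 rose. The Ccl9 difference in HFD was -0.63 ± 0.16 (adjusted p = 0.0179), with -0.40 in HFD+1B minus chow (adjusted p = 0.0844). Without HFD mouse 1 or 3 the HFD difference had an adjusted p of 0.0509 (-0.52 and -0.61). Ccl3, a further Ccr1 ligand, was above background on 5 arrays and gave 0.11 and -0.02 in HFD and HFD+1B against chow (adjusted p = 0.362 and 0.916).

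Ccl5 (RANTES), a ligand of Ccr1 and Ccr3 that draws T cells and monocytes, depended on the probe. With its brightest probe the ratios were -0.42, -0.49, -0.46 and -0.34 in chow and 0.48, 0.42, 0.28, 0.94 and -0.03 in HFD+1B mice, and the groups did not overlap. That probe gave 0.85 ± 0.15 in HFD+1B minus chow (adjusted p = 8.29e-04) and 0.39 in HFD minus chow (adjusted p = 0.129). The other Ccl5 probe gave 0.31 (adjusted p = 0.456) and 0.90 (adjusted p = 0.026) in the same comparisons. In HFD+1B minus HFD the brightest probe gave 0.45 (adjusted p = 0.0459) and the other -0.59 (adjusted p = 0.083), and their mean was -0.07 (adjusted p = 0.821). That call was also lost when any of 14 mice was left out, with values from 0.32 to 0.50 and adjusted p of 0.0513 to 0.141, and that in HFD+1B minus 1B (0.53, adjusted p = 0.0332) when any of 7 was (0.40 to 0.57, adjusted p = 0.0513 to 0.0848). The 14 were all chow and 1B mice, HFD mice 1, 2 and 3 and HFD+1B mice 1, 2 and 4, and the 7 were all 1B mice and HFD+1B mice 1, 2 and 4.

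Ccl24 (eotaxin 2), a Ccr3 ligand of macrophages, had ratios of 0.38, 0.71, 0.47 and 0.25 in chow and -0.21, -0.04, -0.43 and 0.11 in HFD mice, without overlap. The difference was -0.59 ± 0.15 (adjusted p = 0.0218), the dimmer probe gave -0.15 (adjusted p = 0.414), and the call was lost without chow mouse 2 or HFD mouse 3 (-0.51 and -0.50, adjusted p = 0.0662 and 0.0814). Ccl24 in HFD+1B minus HFD gave 0.35 (adjusted p = 0.108, or 0.46 with an adjusted p of 0.00791 with the replicate number as a block). Ccr1, the receptor of Ccl5, Ccl6 and Ccl9, was lower under HFD than under chow (by -0.42 ± 0.13, adjusted p = 0.04) and higher in HFD+1B mice than in HFD mice by 0.46 ± 0.12 (adjusted p = 0.0135). Its ratios were 0.69 to 0.88 in chow, 0.19 to 0.59 in HFD mice and 0.60 to 0.92 in HFD+1B mice, so the HFD mice lay below those of both other groups. Leaving out any chow mouse or HFD mouse 1, 3 or 4 ended the first Ccr1 call (-0.46 to -0.37, adjusted p = 0.0586 to 0.0979). Ccr3 gave -0.06 in HFD+1B minus chow (adjusted p = 0.873). Ccl11, seen above background on 6 arrays and on 0 of the 4 1B arrays, was called in no comparison (adjusted p = 0.91 in 1B minus chow), and no fold is given for it.

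Cxcl12 (SDF-1), the ligand of Cxcr4, fell with ethanol on either diet. Its ratios were 1.16, 0.58, 0.94 and 0.93 in chow, -0.55, 0.09, 0.03 and -0.68 in 1B mice, -0.07, 0.30, 0.55 and 0.50 in HFD mice, and -1.45, -0.78, -1.1, -0.97 and -0.55 in HFD+1B mice. All 1B mice lay below all chow mice and all HFD+1B mice below all HFD mice, while all HFD mice lay below all chow mice. HFD minus chow was -0.58 (adjusted p = 0.0782), called with median centring (-0.83, adjusted p = 0.0333) and with only the groups compared (adjusted p = 0.0417). The fall was -1.18 ± 0.20 on chow (adjusted p = 0.00222) and -1.29 ± 0.19 on HFD (adjusted p = 3.22e-04), with an interaction of -0.11 (adjusted p = 0.877). Against chow the HFD+1B mice were lower by -1.87 ± 0.19, 3.66-fold (adjusted p = 4.98e-06), and by -2.60 to -1.13 within slides. The dimmer Cxcl12 probe gave -1.19 (adjusted p = 4.82e-04) in HFD+1B minus chow, -1.3 (adjusted p = 3.87e-04) in HFD+1B minus HFD and -0.64 (adjusted p = 0.122) in 1B minus chow. In HFD minus chow that probe had the other sign, 0.10 (adjusted p = 0.808). Its HFD+1B minus 1B difference was -0.55 (adjusted p = 0.0956) and its interaction -0.66 (adjusted p = 0.217). In the Cy5 channel alone the fall on chow was -0.75 (adjusted p = 0.636). HFD+1B minus 1B was -0.69 (adjusted p = 0.0295), a call that was lost without 1B mouse 2 or 3 or HFD+1B mouse 1, 3 or 4 (-0.69 to -0.57, adjusted p = 0.0566 to 0.11). Cxcr4 gave 0.28 in HFD+1B minus chow and -0.13 in 1B minus chow (adjusted p = 0.341 and 0.876).

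Kdr and Clec4g, 2 of 7 markers of endothelium, fell beside Cxcl12 in HFD+1B minus chow by -1.05 and -0.82 (adjusted p = 2.19e-05 and 0.00751). Lyve1 of the same list rose by 3.19 (adjusted p = 1.07e-09), and the median difference of the list was 0.10. The list as a mean, which holds Lyve1, ran from -0.04 to 0.08 in chow and from 0.15 to 0.41 in HFD+1B mice. Of 7 stellate markers 5 rose in that comparison and 0 fell, beside 8.89% and 7.41% of all genes, with the list mean between -0.22 and 0.20 in chow and between 0.24 and 0.98 in HFD+1B mice. The part of either cell type in the Cxcl12 result was not tested.

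The other homing chemokines moved in mixed directions. Cxcl14 (BRAK), expressed by epithelia and stroma, had ratios of -0.84, -0.70, -1.0 and -1.06 in chow, -0.28, -0.28, -0.30 and -0.14 in HFD mice, and -0.67, 0.51, -0.24, 0.69 and 0.19 in HFD+1B mice. HFD+1B mice were all above chow but overlapped HFD, and the difference was 1.00 ± 0.20 (adjusted p = 0.00218), with 0.65 in HFD minus chow (adjusted p = 0.0595). The HFD difference of Cxcl14 passed the threshold under 5 other settings, with values of 0.65 to 0.83: without background subtraction (adjusted p = 0.0421), at the offset of 16 (adjusted p = 0.0352), with every array above background (adjusted p = 0.0488), with the replicate block (adjusted p = 0.0336) and with only the groups compared (adjusted p = 0.00376). HFD+1B minus 1B was 0.73 (adjusted p = 0.0259), a call lost without 1B mouse 1 or 3 or HFD+1B mouse 2 or 4 (0.59 to 0.69, adjusted p = 0.0649 to 0.0873).

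Ccl19, a Ccr7 ligand that draws dendritic cells and naive T cells, had ratios of -0.06, -0.33, -0.21 and -0.15 in chow, -0.28, -0.23, -0.34 and -0.57 in 1B mice, -0.33, -0.15, -0.28 and -0.34 in HFD mice, and 0.22, 0.37, 0.01, 0.59 and 0.09 in HFD+1B mice. The HFD+1B mice lay above all others, and the remaining groups overlapped. HFD+1B minus chow was 0.44 ± 0.11 (adjusted p = 0.0105), and ethanol gave -0.17 on chow (adjusted p = 0.623) and 0.53 on HFD (adjusted p = 0.00331), an interaction of 0.70 ± 0.16 (adjusted p = 0.0229). The other Ccl19 probe gave -0.09 for the interaction (adjusted p = 0.907), 0.85 in HFD minus chow (adjusted p = 0.0208) and 0.84 in HFD+1B minus chow (adjusted p = 0.00958), so the 2 probes shared only the higher level in HFD+1B than in chow and in 1B. The interaction call was also lost without chow mouse 1 or 4 or HFD mouse 4 (0.65 to 0.69, adjusted p = 0.0511 to 0.052). Ccl19, Ccl21a and Ccl27a have near-identical copies in the mouse genome, and their signals may come from several loci.

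Ccl21a, also a Ccr7 ligand and the neighbour of Ccl19 on chromosome 4, gave 0.05 in HFD+1B minus chow (adjusted p = 0.895). Ccr7 itself was above background on 0 of 4 chow, 0 of 4 1B, 2 of 4 HFD and 5 of 5 HFD+1B arrays, so it passed the filter only with the HFD+1B arrays. Its mean Cy5 signal in HFD+1B was 1.05-fold that of chow and 1.07-fold that of 1B, and in HFD 1.1-fold that of chow. By the ratio none of these was called (adjusted p = 0.286, 0.43 and 0.254). The Cy5 folds compare measured means between arrays and are not lower bounds. They are not ratios to the reference, so differences between arrays may remain in them. Ccl27a, a skin-homing ligand of Ccr10, had ratios of -0.37, 0.08, 0.18 and 0.26 in chow and -0.46, -0.58, -0.09, -0.60 and -0.58 in HFD+1B mice, so 4 of 5 lay below all chow mice. The difference of -0.50 ± 0.14 (adjusted p = 0.024) was lost without chow mouse 2, 3 or 4 or HFD+1B mouse 2 or 4 (-0.49 to -0.43, adjusted p = 0.0522 to 0.0913). Ccr10 gave -0.12 in that comparison (adjusted p = 0.524).

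Ccl25 (TECK), the thymic and gut ligand of Ccr9, had ratios of -0.17, -0.08 and -0.01 in 3 chow mice, -0.48, -0.40, -0.69 and -0.56 in HFD mice, and 0.19, 0.17, -0.11, 0.35 and -0.20 in HFD+1B mice. The value of chow mouse 1 was an outlier spot and was dropped. HFD mice lay below both other groups, by -0.45 ± 0.13 against chow (adjusted p = 0.0392) and with a rise of 0.61 ± 0.11 in HFD+1B minus HFD (adjusted p = 0.00177). The second Ccl25 probe ran the other way, with 0.23 in HFD minus chow (adjusted p = 0.182) and -0.37 in HFD+1B minus HFD (adjusted p = 0.0174), all 5 HFD+1B mice being lower, so no direction can be given for the gene. The first call was also lost without any chow mouse or HFD mouse 1, 3 or 4 (-0.49 to -0.39, adjusted p = 0.0508 to 0.129). Ccr9 gave 0.06 in HFD minus chow (adjusted p = 0.844), and Ccl28, a mucosal ligand of Ccr10, gave 0.02 in HFD+1B minus chow (adjusted p = 0.953).

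Of the 3 interferon-inducible ligands of Cxcr3, Cxcl9 and Cxcl10 rose in HFD minus chow, and Cxcl10 was lower in HFD+1B than in HFD. Cxcl9 (MIG) had ratios of -0.45, -0.27, -0.41 and -0.42 in chow and -0.05, 0.88, 0.61 and 1.37 in HFD mice, without overlap, and HFD minus chow was 1.09 ± 0.27, 2.13-fold (adjusted p = 0.0154). In HFD+1B mice Cxcl9 was at -0.39, 0.08, -0.25, 0.90 and -0.42, a range that spanned both, and HFD+1B minus HFD was -0.72 (adjusted p = 0.0574, or -0.62 with an adjusted p of 0.0277 with the replicate number as a block). Without HFD mouse 4, the highest, the HFD difference of Cxcl9 was 0.87 (adjusted p = 0.0546), and over the other settings it ran from 0.77 in the Cy5 channel alone to 2.26 in the authors' ratios.

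Cxcl10 (IP-10) had ratios of -0.18, -0.21, 0.01 and -0.01 in chow, 0.20, 0.82, 0.16 and 1.3 in HFD mice and -0.35, -0.22, -0.03, -0.01 and -0.14 in HFD+1B mice. The HFD mice lay above all others, by 0.72 ± 0.18 against chow (adjusted p = 0.0192), and HFD+1B was lower than HFD by -0.77 ± 0.17 (adjusted p = 0.00524). These sizes depend on the background correction: over the other settings the Cxcl10 difference ran from 0.64 to 2.80 in HFD minus chow and from -3.20 to -0.77 in HFD+1B minus HFD, with the authors' ratios at 2.80 and -3.20. The probe was well above background on 3 of 4 chow, 0 of 4 1B, 4 of 4 HFD and 3 of 5 HFD+1B arrays, and no fold against 1B is given (adjusted p = 0.784 in 1B minus chow). Without chow mouse 1 the HFD call had an adjusted p of 0.0526 (0.69). Cxcl11 (I-TAC) differed from both, with ratios of -0.37, -0.24, -0.35 and -0.44 in chow, 0.25, 0.35, 0.11 and -0.22 in 1B mice, 0.00, -0.06, -0.44 and 0.03 in HFD mice, and -0.79, -0.43, -0.93, -0.54 and -0.06 in HFD+1B mice. Ethanol gave 0.47 on chow (adjusted p = 0.147) and -0.43 on HFD (adjusted p = 0.0621, or -0.56 with an adjusted p of 0.00584 under the replicate block), and this interaction was -0.91 ± 0.23 (adjusted p = 0.0326). The interaction was lost without any of 9 mice (chow 1, 3 or 4, 1B 1 or 2, HFD 1 or 4, HFD+1B 1 or 4), with values from -0.91 to -0.83 and adjusted p of 0.051 to 0.0707. Cxcr3, their receptor, gave 0.02 in HFD and -0.04 in HFD+1B against chow (adjusted p = 0.903 and 0.766).

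The promoters of Cxcl9 and Cxcl10, the ligands called in HFD minus chow, are shown with the interferon response-like word GAAANNGAA in capitals on either strand. They are given as for Cxcl1, at chr5:92328030-92328329, minus strand, for Cxcl9 and chr5:92348840-92349139, minus strand, for Cxcl10.
Cxcl9: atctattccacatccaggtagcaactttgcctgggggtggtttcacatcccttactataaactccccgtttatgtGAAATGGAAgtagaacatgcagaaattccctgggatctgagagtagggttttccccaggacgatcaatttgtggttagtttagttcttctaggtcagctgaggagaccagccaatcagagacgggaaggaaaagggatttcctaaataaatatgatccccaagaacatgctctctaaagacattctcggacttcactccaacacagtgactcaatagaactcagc
Cxcl10: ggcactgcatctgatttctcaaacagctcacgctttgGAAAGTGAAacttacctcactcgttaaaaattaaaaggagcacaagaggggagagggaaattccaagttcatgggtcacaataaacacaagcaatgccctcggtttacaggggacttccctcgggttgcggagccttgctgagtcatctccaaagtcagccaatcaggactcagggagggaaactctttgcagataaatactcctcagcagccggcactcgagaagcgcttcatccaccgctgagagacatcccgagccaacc
The word begins 175 bases before the start in Cxcl9 and 213 bases before it in Cxcl10. It occurred in 9.76% of all genes with a promoter and in 9 of the 35 members with an entry, Cxcl9, Cxcl10, Cxcl14, Ccl1, Ccl3, Ccl19, Ccr2, Cxcr1 and Ccrn4l. Cxcl9 and Cxcl10 also hold the NF-kB-like word and the AP-1 word TGANTCA, which was in 8.97% of all genes and in 7 members, while TATAAA was in 15.7% and in 9 members. The Ccl6 and Cxcl12 windows held 0 of these words. Cxcl11 had no entry.

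**Figure D3:**
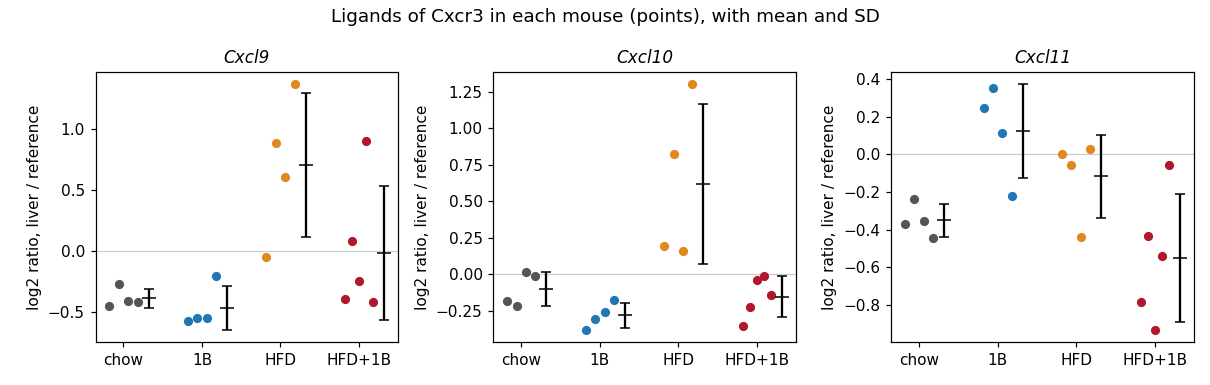
Log2 ratio of liver to reference (vertical axis) of Cxcl9, Cxcl10 and Cxcl11 in each mouse of the 4 groups (points), with the mean and SD beside each group. The HFD mice lie highest for Cxcl10, at 0.16 to 1.3, and reach 1.37 for Cxcl9, whereas for Cxcl11 the 1B mice lie highest, up to 0.35.

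Among monocyte chemokines Ccl2 (MCP-1), the main ligand of Ccr2, had ratios of -0.11, -0.44, -0.23 and -0.25 in chow, 0.04, -0.14, -0.09 and -0.25 in 1B mice, 0.06, 0.04, -0.19 and 0.02 in HFD mice, and 0.23, 0.23, 0.00, 0.31 and -0.14 in HFD+1B mice. Of the HFD+1B mice 4 lay above all chow mice, and the difference was small, 0.38 ± 0.10 or 1.3-fold (adjusted p = 0.0164). Ccl2 was not called in HFD (0.24, adjusted p = 0.175) or 1B (0.15, adjusted p = 0.657), and without chow mouse 2 the HFD+1B difference had an adjusted p of 0.0655 (0.32). Ccl7 and Ccl8, 2 further monocyte ligands, gave -0.06 and 0.24 in HFD+1B minus chow (adjusted p = 0.783 and 0.312). Ccr2 gave 0.28 (adjusted p = 0.259), with its mice between -0.09 and 0.19 in chow and between 0.07 and 0.72 in HFD+1B. Its dimmer probe gave 0.30 (adjusted p = 0.0989), and the mean of its probes was called, at 0.29 (adjusted p = 0.0358). Of 11 macrophage and monocyte markers 1, Cd68, was higher in HFD+1B than in chow, by 1.37, beside 8.89% of all genes. In HFD minus chow 5 were higher, beside 4.5% of all genes. The list mean was between -0.23 and 0.29 in chow, 0.39 and 0.52 in HFD mice and 0.21 and 0.68 in HFD+1B mice. The part of these cells in the Ccl2 result was not tested.

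Of the T helper group Ccl17 (TARC), a Ccr4 ligand, had ratios of -0.61, -0.40, -0.55 and -0.36 in chow, -0.53, -0.40, -0.76 and -0.75 in HFD mice, and -0.21, -0.13, 0.15, -0.08 and -0.25 in HFD+1B mice. All HFD+1B mice lay above those of both other groups, by 0.37 ± 0.10 against chow (adjusted p = 0.0182) and by 0.51 ± 0.10 against HFD (adjusted p = 0.00259). Without chow mouse 1 or 3 the first had an adjusted p of 0.0597 or 0.0574 (0.33 and 0.35). Cx3cl1 (fractalkine), its neighbour on chromosome 8 and the membrane-bound ligand of Cx3cr1, had ratios of -0.44, -0.32, -0.29 and -0.36 in chow and -0.20, 0.10, -0.13, 0.75 and 0.28 in HFD+1B mice, without overlap. The Cx3cl1 difference of 0.51 ± 0.15 (adjusted p = 0.0254) was lost without chow mouse 1, 2 or 4 or HFD+1B mouse 5 (0.48 to 0.52, adjusted p = 0.0507 to 0.0659), and the dimmer probe gave -0.10 (adjusted p = 0.502). Cx3cr1 gave 0.03 (adjusted p = 0.904), and Ccr4 gave 0.16 (adjusted p = 0.347).

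Ccr6, the receptor of Ccl20 on T helper 17 cells, was higher in HFD+1B mice than in HFD mice by 0.51 ± 0.13 (adjusted p = 0.0122), with HFD mice at -0.16, -0.08, -0.54 and -0.19 and HFD+1B mice at 0.27, 0.17, 0.14, 0.45 and 0.35. The groups did not overlap, and without HFD mouse 3, the lowest, the adjusted p was 0.0508 (0.42). The Cy5 channel alone gave 0.12 for Ccr6 (adjusted p = 0.763). Cxcl16, the membrane-bound ligand of Cxcr6, gave -0.35 in 1B mice, -0.54 in HFD mice and -0.49 in HFD+1B against chow (adjusted p = 0.377, 0.0532 and 0.0521, chow mouse 1 dropped as an outlier spot). Its other probe gave -0.12, 0.16 and 0.11. The Cy5 channel alone gave -1.72 for Cxcl16 in HFD minus chow (adjusted p = 0.0162), against -0.54 by the ratio, and -0.56 in HFD+1B minus chow (adjusted p = 0.518). It gave 1.17 for Cxcl16 in HFD+1B minus HFD (adjusted p = 0.0493), where the ratio gave 0.05 (adjusted p = 0.861).

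Lymphotactin and the atypical receptors were not called with their brightest probes. Xcl1 and its receptor Xcr1 gave 0.03 and -0.04 in HFD+1B minus chow (adjusted p = 0.959 and 0.904). Xcr1 gave 0.40 in HFD+1B minus HFD (adjusted p = 0.0734, or 0.48 with an adjusted p of 0.0259 under the replicate block). Ccl1 gave -0.04 in HFD+1B minus chow (adjusted p = 0.896). In HFD+1B minus chow Ccrl2, an atypical receptor that presents chemerin, gave 0.11 with its brightest probe (adjusted p = 0.613) and 0.42 with the other (adjusted p = 0.00656). Ccrn4l, the member that is no chemokine gene, fell by 1.05 ± 0.29 in HFD (adjusted p = 0.0322), with ratios of 0.06, 0.21, 0.68 and 1.05 in chow and -0.39, 0.09, -1.40 and -0.47 in HFD mice that overlapped by 1 mouse. Without chow mouse 3 or 4 or HFD mouse 3 or 4 the Ccrn4l call was lost (-1.07 to -0.76, adjusted p = 0.0604 to 0.116).

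**Figure D4:**
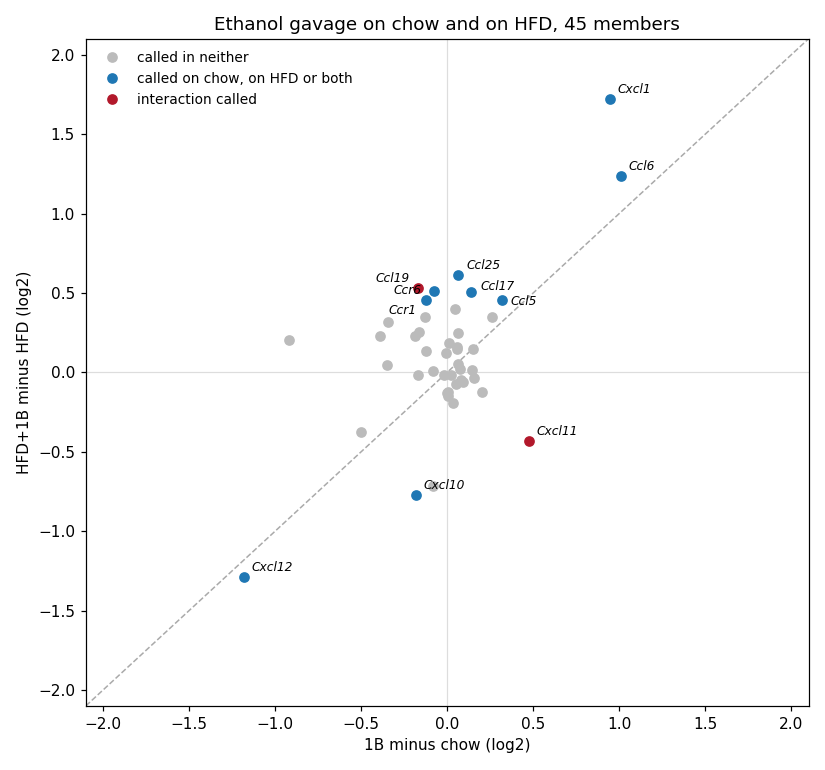
Log2 difference with ethanol on chow (1B minus chow, horizontal axis) against that on HFD (HFD+1B minus HFD, vertical axis) for the 45 members, with a dashed line of equal differences. Ccl6 and Cxcl12 lie at 1.01 and 1.23 and at -1.18 and -1.29, while Ccl19 (-0.17 and 0.53) and Cxcl11 (0.47 and -0.43), whose interaction was called, lie in the quadrants of opposite sign.

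For 16 members a second, dimmer probe passed the same filter. In HFD+1B minus chow both probes called Cxcl12 and Ccl19 in the same direction, the brightest alone called Ccl5 and Cx3cl1, and the other alone called Ccrl2. In HFD minus chow no gene was called by both, the brightest alone called Ccl24 and Ccl25, and the other alone called Ccl5, Ccl19 and Cxcr2. Cxcl1, Ccl6, Ccl2, Ccl9, Ccl17, Cxcl9, Cxcl10, Cxcl11 and Cxcl14 had only 1 tested probe, and no second measurement bears on them.

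**Figure D5:**
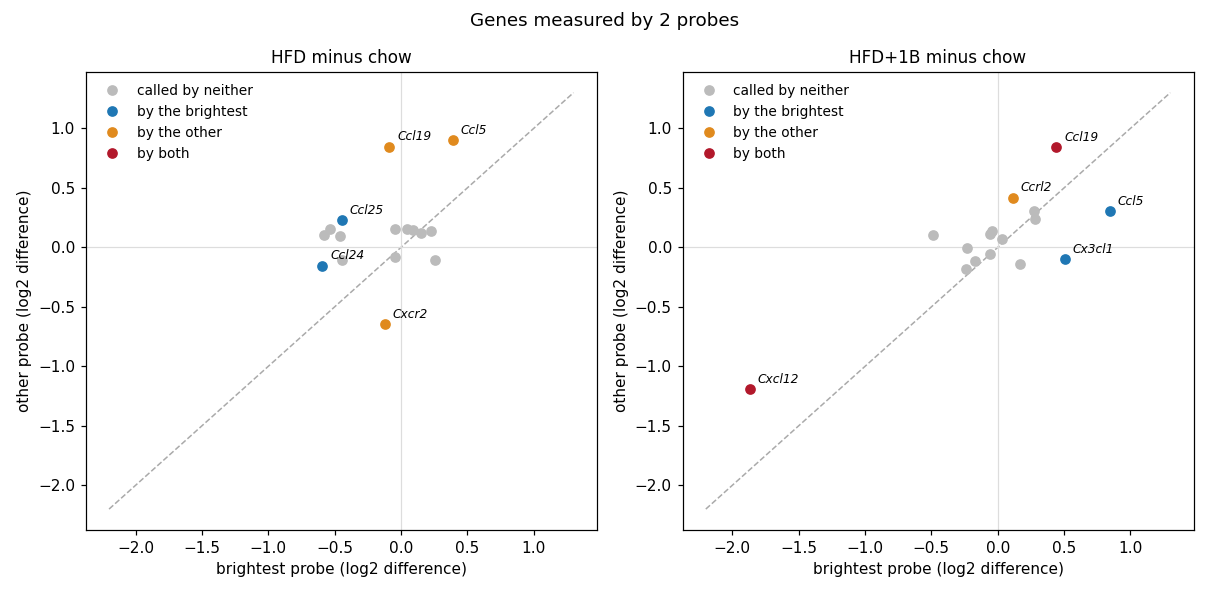
Log2 difference by the brightest probe (horizontal axis) and by the other probe (vertical axis) of the 16 genes with 2 tested probes, in HFD minus chow and in HFD+1B minus chow, coloured by which probe was called. Cxcl12 (-1.87 and -1.19) and Ccl19 (0.44 and 0.84) were called by both probes in HFD+1B minus chow, and Cx3cl1 (0.51 and -0.10) lies far from the dashed line of equality.

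The lists of genes around the family are given as counts, and no list was tested as a set. They stand beside 8.89% of all genes higher and 7.41% lower in HFD+1B minus chow. Of 21 tested upstream cytokine and NF-kB genes 7 were higher and 1 lower in HFD+1B minus chow (median 0.17), against 1 and 2 in HFD minus chow and 0 and 0 in 1B minus chow. Those higher were Nfkb2, Rela, Relb, Nfkbiz, Tnfaip3, Il1r1 and Tnfrsf1a, with Il1r1, the receptor of interleukin 1, at 1.87 (adjusted p = 4.89e-04) and Relb, a subunit of NF-kB, at 0.74 (adjusted p = 6.41e-04). The cytokines Il1b and Tnf gave 0.17 and -0.29 (adjusted p = 0.221 and 0.0729), and Tnf was lower under HFD, by -0.52 (adjusted p = 0.00659). Of 25 genes of receptor signalling 6 were higher and 0 lower (median 0.12), among them Rgs16 and Rgs1, which shut off G protein signals, at 2.20 and 1.43 (adjusted p = 6.94e-05 and 6.41e-04). Rgs16 was also higher in 1B (1.94, adjusted p = 0.00137) and HFD (1.29, adjusted p = 0.0156).

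Of 13 adhesion genes and trimming partners 6 were higher and 1 lower in HFD+1B minus chow (median 0.40), beside 8.89% and 7.41% of all genes, and 0 were called in 1B or HFD minus chow. Sdc1, a heparan sulfate carrier that binds chemokines, gave 1.43 (adjusted p = 3.32e-05), Vcam1 0.93 (adjusted p = 0.0025), and Dpp4, a protease that trims Cxcl12, -0.40 (adjusted p = 0.023). Of 6 tested chemokines and receptors named outside the spelling, Pf4, a platelet chemokine, was higher in HFD and HFD+1B than in chow, by 0.72 and 0.70 (adjusted p = 0.0424 and 0.0259), and the scavenger receptors Ackr1, Ackr2 and Ackr4 gave 0.10, 0.07 and 0.22 in HFD+1B (adjusted p = 0.814, 0.817 and 0.562). Of the lymphocyte lists 0 of 6 T cell and 0 of 5 B cell markers were called in any comparison with chow. Of 5 natural killer markers Klrd1 was higher in HFD and HFD+1B than in chow (1.1 and 1.35, adjusted p = 0.0468 and 0.00748) and Prf1 lower in HFD (-0.59, adjusted p = 0.0407). Of 7 hepatocyte markers 1 was higher, Tat, and 1 lower, Cyp2e1, in HFD+1B minus chow.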

How the data were processed

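Gene expression was measured on 17 two-color Agilent arrays, 1 per mouse, without dye swap. The reference (Cy3) is named in the labels both as assorted mouse RNA and as liver. The authors scanned the arrays with Agilent Feature Extraction 11.5.1.1 and deposited, per spot, the median intensity and local background of both dyes, and a table of log2 ratios of liver to reference, which was checked to equal the ratio of their processed signals (largest difference 2.7e-06) and was used as an alternative and for gene symbols. The number of arrays limits the precision.

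From the deposited intensity values, background was corrected by normexp (offset 50), outlier spots were removed, and each array's log2 ratios were loess-normalized and averaged per probe. The offset compresses ratios of dim probes. Of 41174 probes, 34664 (19358 genes) were tested, those whose Cy5 signal stood well above background on 4 or more arrays and that had values in all groups (25 had not). Each gene was represented by its brightest probe in Cy5. Group means were fitted with limma 3.58.1 in R 4.3.3 (lmFit, eBayes, 13 residual degrees of freedom), and 6 comparisons were called at a Benjamini-Hochberg adjusted p of 0.05 over all probes. The methods' analysis of variance and 2-fold rule were alternatives. Where a group had no array above background, lower bounds were sought from Cy5 after loess and Aquantile. The floor never exceeded the measured mean, so the folds given are ratios of measured means. The fit was tested on simulated data.

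The members, gene lists and tests were chosen with earlier results of these data known. By the rule for named genes, members called in any comparison were given with full statistics, as were Cxcl1, Cxcl2, Cxcl5, Cxcr2, Ccl2, Ccr2, Cx3cr1, Cxcl10, Cxcl12, Cxcl14, Cxcl16 and Cxcr6 where they were members. Nothing states that mice of a group came from separate cages, and p-values measure the spread between mice. Promoters and chromosomes are from RefSeq tables (GRCm38.p6); 35 of 45 members had a promoter entry. Protein sequences were not used here. Values of 1 member, called in no comparison, are not reported here. Whether replicate numbers paired the mice was checked by correlating deviations from group means. In HFD and HFD+1B all 4 same-numbered pairs correlated at 0.15 to 0.48, 3 of them on a shared slide, and the value with the number as a block is given where it changes a call there. Elsewhere some pairs fell below 0.1.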

Additional observations from a re-analysis of the deposited data

Results flagged for a closer look

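In 4 of 92 groups of member values 1 mouse stood far from the others, where about 1 in 20 groups, here 4.6, would by chance. The gap to the nearest mouse, as a share of the group's range, was 0.844 for the lowest Ccl2 value (HFD mouse 3), 0.74 for the highest Ccl27a value (HFD+1B mouse 3), 0.904 for the highest Cxcl14 value (HFD mouse 4) and 0.95 for the highest Cxcl9 value (1B mouse 4).

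The ethanol difference differed between diets for Ccl19, by 0.70, and for Cxcl11, by -0.91 (interaction term of limma, adjusted p = 0.0229 and 0.0326). A second Ccl19 probe gave -0.09 (adjusted p = 0.907).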

How the results depend on the processing

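Of 40 called differences of members, 508 of 595 values under other settings kept direction and call, 86 lost the call and 1 reversed, Ccl5 in HFD+1B minus HFD by the mean of all probes (-0.0705, adjusted p = 0.821). With 1 mouse left out, 597 of 680 values kept the call and 83 lost it. Ccl6 and Cxcl1 in HFD+1B against the 3 other groups, and Cxcl12 in HFD+1B minus chow and minus HFD, lost no call. The numbers of called members, in the order 1B, HFD and HFD+1B minus chow, HFD+1B minus HFD, HFD+1B minus 1B and interaction, were 0, 3, 5, 6, 2 and 0 with the Cy5 channel alone. The 2-fold rule with an unadjusted p gave 3, 3, 3, 2 and 1 from HFD minus chow on. HFD+1B minus 1B had 5 called members when only those groups were fitted. The interaction had 1 with the authors' table, 1 with the mean of all probes and 4 with the slide as a block. The cause was not tested. Without 1 mouse the counts were 1 to 3, 3 to 10 (3 without HFD mouse 3), 7 to 11 (7 without chow mouse 2), 9 to 13, 5 to 9 (5 without 1B mouse 3 or HFD+1B mouse 4) and 0 to 3 (0 without chow mouse 1 or 4 or HFD mouse 4).

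The replicate block gave 3, 10, 12, 14, 9 and 6 called members in the same order, and no call of the 40 was lost under it. Of HFD+1B minus HFD, where all 4 same-numbered pairs passed 0.1, it added Ccl24, Cxcl9, Cxcl11 and Xcr1. The labels state no pairing, and in the 3 of these pairs that shared a slide, number and slide cannot be told apart. HFD mouse 2 and HFD+1B mouse 2, on different slides, correlated at 0.21. HFD mouse 2 and HFD+1B mouse 5, on 1 slide with different numbers, correlated at -0.23. What lay behind these correlations was not tested. HFD mouse 3 and HFD+1B mouse 5, with different numbers and slides, correlated at 0.24. For the other comparisons 2 or 3 of 4 pairs passed 0.1, and 9 of 17 arrays correlated best with their own number. Beside those of Cxcl9 and Cxcl10, the widest range over the other settings was that of Cxcl11 in the interaction (-1.76 to -0.70). Next were Ccl5 in HFD+1B minus HFD (-0.07 to 0.71) and Cxcl14 in HFD+1B minus chow (0.80 to 1.56). Ccl25 in HFD+1B minus HFD (0.12 to 0.86) and Ccl19 in the interaction (0.30 to 1.01) followed. Further ranges were those of Cxcl11 in HFD+1B minus 1B (-1.27 to -0.58), Ccr1 in HFD minus chow (-0.86 to -0.22) and Ccl17 in HFD+1B minus HFD (0.46 to 0.96). Tukey's test gave no interaction value, and Cxcl9 and Cxcl10 were not tested when every array had to be above background. Probes near background, Ccr7 and Cxcl10 in 1B among them, have no firm fold.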
